A study of Mus musculus with 37 samples.

Results

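Alpha-1 antitrypsin and antichymotrypsin are protease inhibitors of the serpin family that the liver secretes into plasma. The 8 genes followed here are Serpina1a, Serpina1b, Serpina1c, Serpina1d and Serpina1e, the mouse copies of the alpha-1 antitrypsin gene, and Serpina3k, Serpina3m and Serpina3n, which belong to the expanded antichymotrypsin group. They were taken by name, with every probe of each gene, though earlier results of these data were known when they were chosen. The table held 30146 probes for 21450 gene symbols. Of these, 13 probes belonged to 7 of the 8 genes, and Serpina1c had none. A filter on low counts kept 18570 probes, 12 of the 13 among them. Serpina1a_79121 failed it, with a count in 9 mice and at most 16 counts, and is not described further.

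The measurements were TempO-Seq counts, which tally pairs of short oligonucleotides ligated on a transcript, from fixed and embedded liver of CD1 mice of the stock Crl:CD1(ICR). Adult male and female parental mice were gavaged every day with HFPO-DA, a short-chain perfluoroalkyl ether acid, at 5, 0.5 or 0.1 mg/kg, or with its vehicle (0 mg/kg). Dosing began at about 6 weeks of age in males and 11 weeks in females. There were 5 male and 5 female controls, 5 males and 5 females at 0.1 mg/kg, 5 males and 4 females at 0.5 mg/kg and 4 of each sex at 5 mg/kg, 37 mice in all. Males were given 84 to 85 doses, over 70 days before mating and 14 days of mating, and females 53 to 65 doses, from 14 days before mating to day 20 or 21 of lactation. Females had therefore been pregnant and were lactating, so sex cannot be told apart from reproductive state, age or number of doses. Total counts ran from 2101495 to 10548222 in males and from 7952605 to 13878254 in females. Counts of the Y-linked Ddx3y, 31 to 623 in males and 0 to 2 in females, matched every label.

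Serpins inhibit by presenting a flexible reactive loop as bait: the protease cuts it and is carried off in a covalent complex. Alpha-1 antitrypsin is best known for restraining neutrophil elastase, and its loop sequence sets which protease is caught. In rodents both clusters have been duplicated, and the copies differ most in that loop. Serpina3n is a classical acute phase gene of mouse liver, induced by inflammatory cytokines. Serpina3k and the Serpina1 genes are expressed at high levels in healthy hepatocytes.

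Both clusters lie on chromosome 12. In GRCm38.p6 RefSeq places Serpina1b at chr12:103728156-103738189, Serpina1d at chr12:103763587-103773633, Serpina1a at chr12:103853295-103863619, Serpina1c at chr12:103894926-103904950 and Serpina1e at chr12:103946931-103956897, all on the minus strand. Serpina3k at chr12:104338486-104345739, Serpina3m at chr12:104387157-104394259 and Serpina3n at chr12:104406646-104414334 follow on the plus strand. The coding sequence of the reactive loop shows how the copies differ. The stretches below are 48 bases of coding sequence in the last exon, from GENCODE M21 transcripts (GRCm38), starting at a glycine codon of the hinge. Capitals mark bases that differ from Serpina1a in the Serpina1 set and from Serpina3k in the Serpina3 set.
Serpina1a: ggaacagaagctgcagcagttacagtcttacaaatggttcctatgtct
Serpina1b: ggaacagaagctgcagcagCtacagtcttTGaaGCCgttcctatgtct
Serpina1c: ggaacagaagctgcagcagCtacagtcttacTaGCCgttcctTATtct
Serpina1d: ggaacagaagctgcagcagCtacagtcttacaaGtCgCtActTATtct
Serpina1e: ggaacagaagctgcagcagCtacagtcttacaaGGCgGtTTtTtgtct
Serpina3k: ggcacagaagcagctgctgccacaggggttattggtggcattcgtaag
Serpina3m: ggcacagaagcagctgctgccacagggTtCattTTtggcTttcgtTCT
Serpina3n: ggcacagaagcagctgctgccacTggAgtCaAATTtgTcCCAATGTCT

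Within the Serpina1 set 6 to 8 of the 48 bases differed from Serpina1a, against 8 for Serpina3m and 17 for Serpina3n from Serpina3k. Over the whole coding sequence the Serpina1 genes were 96.3 to 98.5% identical in pairs. Serpina3k and Serpina3m were 91.8% identical, and Serpina3n was 83.5% identical to Serpina3k and 85.2% to Serpina3m. This likeness bears on the counts. Of the 50-base windows in the transcripts of Serpina1a, 51.4% were found unchanged in another member, most often Serpina1c. The share was 31% for Serpina1b, 73.3% for Serpina1c, 48% for Serpina1d and 32.7% for Serpina1e. It was 12.8% for Serpina3k, 17.1% for Serpina3m and 0.893% for Serpina3n. Whether a Serpina1 or Serpina3 probe also counted its neighbours' transcripts was not tested, since the probe sequences were not used here. CD1 alleles may also differ from the reference. Probe values of the Serpina1 genes, Serpina3k and Serpina3m are therefore uncertain as values of 1 gene.

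The promoters of the Serpina1 genes are also much alike. The 80 bases below end before the annotated start site in each gene, and capitals mark GTTAAT, letters found in every copy. They are RefSeq sequences of GRCm38.p6 on the minus strand, shown to describe the likeness of the copies. Whether this likeness bears on their levels was not tested, and Serpina1c had no probe.
Serpina1a, chr12:103863625-103863704: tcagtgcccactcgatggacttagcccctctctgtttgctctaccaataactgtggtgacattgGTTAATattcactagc
Serpina1b, chr12:103738200-103738279: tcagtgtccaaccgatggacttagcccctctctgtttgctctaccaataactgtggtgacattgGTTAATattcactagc
Serpina1c, chr12:103904962-103905041: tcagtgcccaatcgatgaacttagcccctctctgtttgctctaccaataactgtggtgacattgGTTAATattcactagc
Serpina1d, chr12:103773634-103773713: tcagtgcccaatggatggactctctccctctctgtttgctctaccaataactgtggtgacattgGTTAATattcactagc
Serpina1e, chr12:103956960-103957039: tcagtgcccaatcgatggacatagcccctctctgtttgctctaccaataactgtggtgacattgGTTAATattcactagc

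Any pair of these stretches differed at 2 to 7 of 80 bases. GTTAAT was present once in each of the 5 and absent from the Serpina3n promoter, the other one in the reference table. Searched on both strands, it occurred in 7.1% of the 32851 promoter windows of that table, all of the same length. CCAAT was in the same 5 and in 37.4% of all promoters. TATAAA and TTCNNNGAA, the letters of a TATA box and of a STAT site, and the direct repeat of the PPAR response element were in none of the 6, and in 13.6%, 8.3% and 0.0396% of all promoters. These matches describe letters in a window and are not tests of binding.

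HFPO-DA at 5 mg/kg lowered most probes of the genes followed here in both sexes. In males 11 of the 12 probes tested, covering all 7 genes, were lower than in controls (edgeR, adjusted p under 0.10, Benjamini-Hochberg across the 18570 probes). None was higher. Of all probes 8.49% were lower in that comparison. In females 9 of 12 probes, covering 6 genes, were lower and none was higher, where 2.26% of all probes were lower. The exceptions in females were both Serpina3n probes. Serpina1e_62853, at most 42 counts in any mouse, was called in neither sex. The median log2 fold change over the 12 probes was -1.63 in males and -1.25 in females, beside -0.12 and -0.01 over all probes. Several probes share a gene or near-identical transcripts, so the probe counts are not counts of independent events. The mice are single animals, and the p-values set a group difference against the spread between mice as the edgeR fit estimates it.

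**Figure D1:**
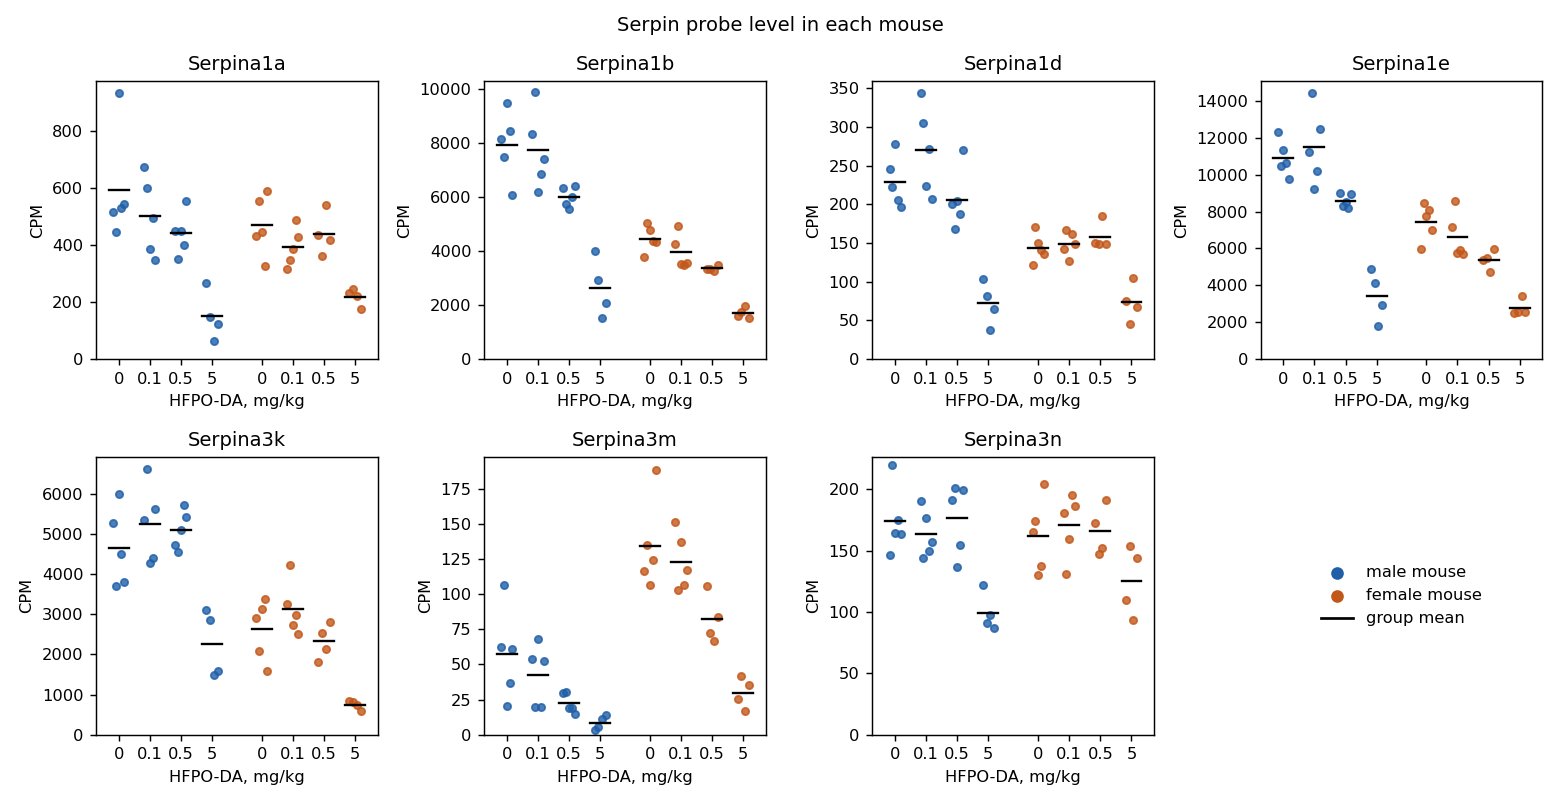
Level of the most counted probe of each measured serpin gene in each of 37 mice, in CPM (counts scaled to the library total with TMM factors), by HFPO-DA dose in mg/kg. Each point is a mouse and each bar the group mean. At 5 mg/kg, points lie below the control points in every male panel and in every female panel except Serpina3n.

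The separation was complete in single mice. Every male at 5 mg/kg was below every male control for the same 11 probes, where 4.8% of all probes separated that way, and in females this held for 9 probes, against 4.31% of all probes. The share of all counts that fell on the 13 probes averaged 2.57 ± 0.368% (SD, n = 5) in male controls and 1.05 ± 0.32% (n = 4) in males at 5 mg/kg. In female controls it averaged 1.89 ± 0.127% (n = 5), and after 5 mg/kg 0.784 ± 0.0766% (n = 4). These are bulk livers, in which fewer hepatocytes and less of a transcript per hepatocyte cannot be told apart. The 7 hepatocyte markers with a probe summed to 32200 to 48800 CPM of the raw total in male controls and 25000 to 27000 CPM in males at 5 mg/kg. Female sums were 30700 to 45900 and 34000 to 37000 CPM. Of these 7 markers 4 fell in males (Apoa1, Cps1, Cyp2e1 and Fgb) and 2 in females (Ttr and Fgb). Of all probes 8.49% were lower in males and 2.26% in females. Alb, which encodes albumin, was at log2 fold changes of -0.16 (adjusted p = 0.645) and -0.25 (adjusted p = 0.68). Summed Kupffer cell markers ran from 42.9 to 162 CPM in male controls and 45.7 to 193 CPM in treated males, and stellate cell markers from 134 to 339 and 271 to 355 CPM. The same sums in females were 105 to 245 and 142 to 328 CPM, and 160 to 659 and 202 to 596 CPM. Of the neutrophil markers Elane was at 0 in every mouse of these 4 groups. No marker of Kupffer, stellate, bile duct, neutrophil, lymphoid or erythroid cells passed the test at 5 mg/kg, and 2 of 7 endothelial markers, Kdr and Oit3, fell in males. The part of cell composition in the serpin changes was not tested.

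Serpina1e_82223 was the most counted single probe of the alpha-1 antitrypsin genes. In male controls it was at 12339, 10481, 11340.4, 10619 and 9773 CPM, and in males at 5 mg/kg it was at 4876, 4144, 1821 and 2916 CPM. The lowest treated value belonged to replicate 3, the mouse with the smallest total count of all 37. The fall was 3.17-fold (log2 fold change -1.67 ± 0.19, where ± is the SE for log2 values and the SD for levels, edgeR adjusted p = 1.73e-08). Female controls were at 5951, 8442, 7738, 8086 and 7000.4 CPM and females at 5 mg/kg at 2515, 2557, 3416 and 2533 CPM. All but replicate 3 of the treated females lay close together, and all 4 were below the lowest control. The fall in females was 2.7-fold (log2 fold change -1.43 ± 0.19 SE, edgeR adjusted p = 5.45e-07).

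Serpina1b, another alpha-1 antitrypsin copy, was read by 2 probes with many counts. Serpina1b_79337 averaged 7924 ± 1258 CPM (SD, n = 5) in male controls and 2624 ± 1091 (n = 4) at 5 mg/kg, a 3.02-fold fall with an adjusted p of 2.92e-08. In females it went from 4456 ± 473 (n = 5) to 1702 ± 186 (n = 4), 2.62-fold, with an adjusted p of 7.86e-07. The second probe, Serpina1b_67899, fell less in point estimate, by 1.32 ± 0.22 on the log2 scale in males and by 0.83 ± 0.21 in females (adjusted p = 2.83e-05 and 0.0149). Its mean levels were 2602 ± 834 and 1041 ± 301 CPM in males and 2796 ± 554 and 1575 ± 186 CPM in females. Both probes of the gene therefore moved the same way under treatment.

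The remaining alpha-1 antitrypsin copies were counted less. Serpina1a_72510 was at 517, 448, 933, 529 and 544 CPM in male controls and at 266, 147, 63.4 and 124 CPM in males at 5 mg/kg. One control mouse, replicate 3, stood above the other 4, and no treated male reached the lowest control. In females the controls were at 432, 554, 447, 326 and 589.8 CPM and the treated mice at 232, 245, 223 and 177 CPM. The male log2 fold change was -1.98 ± 0.26 (adjusted p = 5.6e-07) and the female one -1.10 ± 0.25 (adjusted p = 0.00454). Serpina1d_74731 went from 229.6 ± 32.8 CPM (n = 5) to 72.0 ± 27.4 (n = 4) in males, with a log2 fold change of -1.67 ± 0.22 and an adjusted p of 4.06e-07. It went from 144 ± 18.4 to 73.3 ± 24.6 CPM in females, with a log2 fold change of -0.97 ± 0.21 and an adjusted p of 0.00247.

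Serpina3k, the most counted member of the antichymotrypsin group, is known in rodents as a tissue kallikrein-binding protein. Male controls had 5262, 3698, 5984, 4508 and 3812 CPM of Serpina3k_62628, and males at 5 mg/kg had 3103, 2856, 1477 and 1577 CPM. Female controls had 2906, 2095, 3123, 3391 and 1586 CPM, and females at 5 mg/kg had 838, 824, 729 and 585 CPM. Every treated female was below every treated male, and every female control was below every male control. The fall was 2.06-fold in males (log2 fold change -1.05 ± 0.21, adjusted p = 0.000757) and 3.52-fold in females (-1.82 ± 0.22, adjusted p = 1.4e-07). The second probe, Serpina3k_29512, gave male and female log2 fold changes of -0.95 ± 0.25 and -2.15 ± 0.27 (adjusted p = 0.0122 and 2.43e-07).

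Serpina3m, a close relative of Serpina3k, fell furthest in fold among the members in males. Serpina3m_29204 was at 62.5, 107, 20.7, 36.8 and 60.8 CPM in male controls and at 3.54, 5.41, 10.9 and 13.9 CPM at 5 mg/kg. Female controls were at 117, 135, 106, 124 and 188 CPM and treated females at 25.7, 41.7, 16.7 and 35.6 CPM. Of the 4 treated females 3 were within the range of male controls, and every treated male lay below it. The fold changes were 6.86-fold lower in males (log2 -2.78 ± 0.40, adjusted p = 3.15e-06) and 4.48-fold lower in females (-2.16 ± 0.37, adjusted p = 0.000111). Serpina3m_55888 gave -3.36 ± 0.46 in males and -2.24 ± 0.41 in females on the log2 scale (adjusted p = 9.96e-07 and 0.000228). In treated males this probe had only 2 to 30 counts a mouse, so its value there is loosely set.

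Serpina3n, the acute phase member, differed from the rest in the calls. Serpina3n_29367 was at 146, 219.8, 164, 175 and 163 CPM in male controls and 122, 91.2, 97.5 and 86.8 CPM in males at 5 mg/kg, without overlap. That was a 1.75-fold fall (log2 -0.81 ± 0.18, adjusted p = 0.00171). In females the controls had 165, 174, 130.2, 137 and 205 CPM and the treated mice 109.7, 153, 93.3 and 144 CPM. The female groups overlapped, with a log2 fold change of -0.37 ± 0.17 (95% interval -0.72 to -0.02, unadjusted p = 0.0371, adjusted p = 0.352). The second probe, Serpina3n_71566, was lower in males (log2 -1.91 ± 0.48, adjusted p = 0.0069), where 1 treated mouse, the one with the smallest total, had 0 counts. Without that mouse it was -1.57 with an adjusted p of 0.0217. In females it was -0.31 ± 0.44, with a 95% interval from -1.19 to 0.57.

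**Figure D2:**
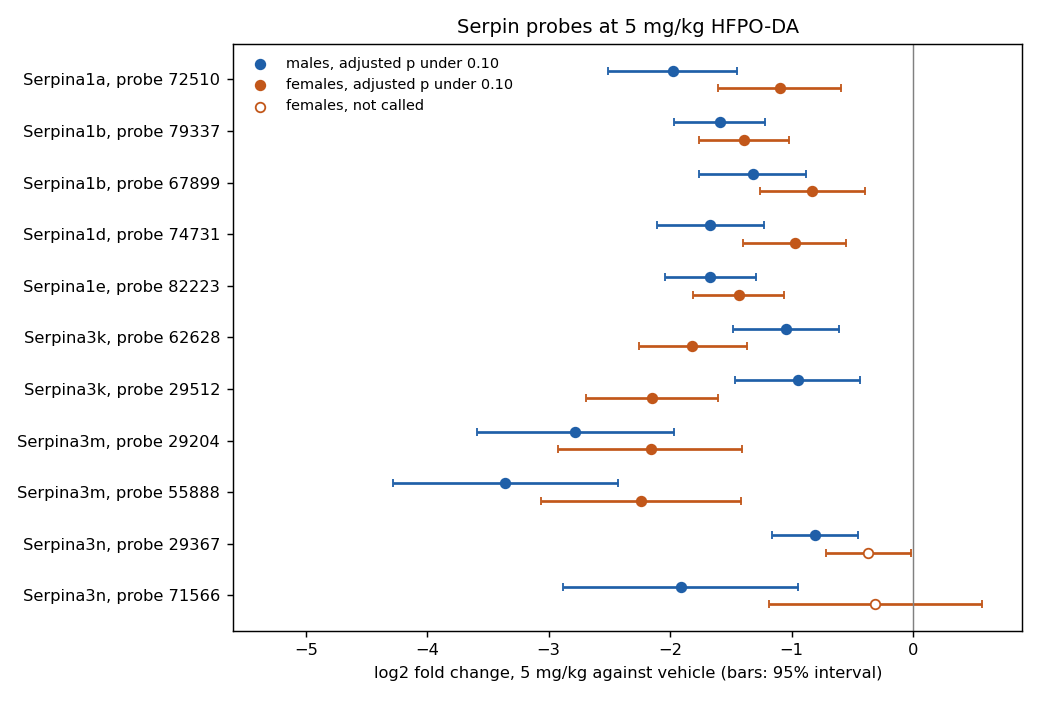
Log2 fold change of 11 serpin probes at 5 mg/kg against vehicle controls of the same sex, with 95% intervals from the edgeR fit. Filled points have an adjusted p under 0.10 and open points do not; Serpina1e_62853, with almost no counts, is left out. Serpina3k lies further left in females and most other probes further left in males, with intervals that overlap for many probes.

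One male control stood apart in a way that bears on an acute phase family. Saa1, which encodes the acute phase protein serum amyloid A, was at 56724 CPM in male control replicate 2 and at 98.2 to 262 CPM in the other 4 male controls. Lcn2, another inflammation marker, was at 1119 CPM there against 1.3 to 7 CPM. The same mouse had the highest values among male controls for Serpina3n_29367 (219.8 CPM) and for both Serpina3m probes (107 and 65.4 CPM). The second Serpina3n probe, Serpina3n_71566, was at 11.3 CPM in that mouse, within the 7.57 to 19.9 CPM of the other male controls. The Serpina1e_82223 value of this mouse was within the range of the others. This mouse was the lowest male control for both Serpina3k probes (3698 and 377 CPM) and for Serpina1a_72510 (448 CPM). A male at 0.1 mg/kg, replicate 1, had 15490 CPM of Saa1 as the next highest mouse. Without the control mouse the count in males at 5 mg/kg was still 11 of 12 probes. Serpina3m_29204 was then at -2.46 and Serpina3n_29367 at -0.74 on the log2 scale, both still called.

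At lower doses nearly no member probe was called, though some values at 0.5 mg/kg lay below every control. At 0.1 mg/kg no member probe was called in either sex, and 0% of all probes were lower. No member had an unadjusted p under 0.05 there, and DESeq2 called 0 as well. At 0.5 mg/kg 1 of 12 probes was lower in males, Serpina3m_29204, where 0.242% of all probes were lower. Its level was 30, 30.2, 19.2, 19.3 and 14.6 CPM, so 3 of the 5 mice were below the lowest control. The log2 fold change was -1.35 ± 0.34 (adjusted p = 0.0659). The call was lost without male control replicate 2, the mouse with high Saa1 (log2 fold change -1.0, adjusted p = 0.293), and without any of 5 other mice. A further 2 male probes had unadjusted p-values under 0.05, Serpina1b_79337 at -0.40 ± 0.17 and Serpina1e_82223 at -0.34 ± 0.17, with adjusted p-values of 0.38 and 0.48. Serpina1e_82223 was at 9005, 8274, 8535, 8204 and 8965 CPM, all below the lowest male control. How many of all probes separated in this way at 0.5 mg/kg was not counted.

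Females at 0.5 mg/kg had 0 of 12 probes lower by edgeR and 0 by DESeq2, and 0.00539% of all probes were lower. The same pair of probes, Serpina1b_79337 and Serpina1e_82223, had unadjusted p-values of 0.0263 and 0.013 (adjusted p = 1.0 for both). Serpina1b_79337 was at 3322, 3346, 3245 and 3499 CPM, all below the lowest female control at 3785 CPM. Serpina1e_82223 was at 5348, 5481, 4737 and 5961 CPM, with 1 mouse just above its lowest female control of 5951 CPM. Serpina3m_29204 also did not overlap its female controls, at a log2 fold change of -0.71 ± 0.35 (unadjusted p = 0.0518). For females too, the share of all probes that separated at this dose was not counted, so these separations are description only. The summed Serpina1 probes at 0.5 mg/kg stood at 77.5% of the male and 78.8% of the female control mean, and those at 5 mg/kg at 32.9% and 41.3%. The summed Serpina3 probes stood at 110% and 86.5% at 0.5 mg/kg, and at 48.3% and 29.9% at 5 mg/kg. At 0.5 mg/kg the highest Serpina1 sum was 18547 CPM in males, below the lowest male control at 18697 CPM. In females it was 12788 CPM, below the lowest female control at 13595 CPM. The Serpina3 sums overlapped their controls in both sexes. These sums are given as description and were not tested.

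The step from 0.5 to 5 mg/kg was itself large. In males 11 of 12 probes were lower at 5 than at 0.5 mg/kg, where 5.57% of all probes were lower. In females 9 of 12 were lower, where 0.84% of all probes were lower. Without 1 mouse at a time the female count was 6 to 8, while the male count stayed at 11. The log2 differences for Serpina1e_82223 were -1.32 ± 0.18 in males and -0.97 ± 0.19 in females (adjusted p = 5.88e-06 and 0.00235). For Serpina3k_62628 they were -1.18 ± 0.21 and -1.64 ± 0.23 (adjusted p = 0.000374 and 8.02e-06). The doses share the group at 5 mg/kg with the comparisons against controls, so these are not independent tests.

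Control males and control females differed in both directions. Higher in males were Serpina1b_79337 (log2 difference 0.83 ± 0.17, adjusted p = 0.0016), Serpina1d_74731 (0.67 ± 0.20, 0.0638), Serpina1e_82223 (0.55 ± 0.17, 0.0929) and Serpina3k_62628 (0.83 ± 0.20, 0.0119). These were 4 of 12 probes, where 1.24% of all probes were higher in males. Lower in males were Serpina3m_29204 (-1.22 ± 0.33, adjusted p = 0.0422) and Serpina3m_55888 (-1.21 ± 0.36, 0.0804), 2 of 12, where 1.36% of all probes were lower. For the 4 probes higher in males, every control male was above every control female, while the Serpina3m ranges overlapped. The share of all probes that separated the control sexes was not counted, so this separation is description only. Of Serpina1b, the second probe was at -0.10 ± 0.20 between the sexes, with a 95% interval from -0.50 to 0.29, so its 2 probes gave different answers. Both Serpina3n probes were close to 0 (0.10 ± 0.16 and -0.10 ± 0.41). Most of these calls rested on few mice: without 1 control mouse at a time, 2 to 4 probes were higher and 0 to 2 lower. Both Serpina3m calls were lost without male replicate 3, male replicate 4 or female replicate 5.

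The response at 5 mg/kg was then compared between the sexes as a difference of differences. No member probe passed in either direction at an adjusted p under 0.10, while 0.463% of all probes fell more in males and 0.167% fell less or rose more. Unadjusted, 5 probes had p-values under 0.05. Serpina3k_29512 fell less in males by 1.20 on the log2 scale (95% interval 0.48 to 1.91, adjusted p = 0.168) and Serpina3k_62628 by 0.77 (0.17 to 1.37, adjusted p = 0.344). In the other direction were Serpina1a_72510 at -0.88 (-1.58 to -0.17, adjusted p = 0.371), Serpina1d_74731 at -0.70 (-1.29 to -0.10, 0.389) and Serpina3n_71566 at -1.60 (-2.89 to -0.32, 0.369). For Serpina1e_82223 the interval ran from -0.74 to 0.28. The Serpina3k_29512 difference did pass with DESeq2 (1.28, adjusted p = 0.0326), without the low-count filter and with the size factors of DESeq2 in edgeR, and its adjusted p over these alternatives ran from 0.0326 to 0.312. At 0.5 mg/kg no member probe passed by edgeR or DESeq2, and 0.00539% of all probes did so in each direction. There 2 probes, Serpina3k_29512 and the nearly empty Serpina1e_62853, had unadjusted p-values under 0.05.

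The 2 clusters were also set against each other as a ratio in each mouse, compared between groups without a test. For every 100 counts on Serpina1 probes, male controls had 20.8 to 26.1 counts on Serpina3 probes and males at 5 mg/kg had 30.5 to 43.3, without overlap. At 0.5 mg/kg the males had 29.8 to 40.3. Males at 0.1 mg/kg, where no member probe was called, had 26.2 to 30.8, also above every male control. Female controls had 15.1 to 27.8 and females at 5 mg/kg 12.9 to 19, with overlap. Most Serpina3 counts were from Serpina3k. A count ratio between probes depends on how well each probe works, so only its change between mice can be read. Serpina3n per 100 CPM of Serpina3k was 3.75 to 12.5 in female controls and 12.6 to 24.1 in females at 5 mg/kg. In males it was 2.61 to 5.67 and 3 to 5.86. Serpina3m per 100 CPM of Serpina3k was 4.4 to 16.7 in female controls and 0.637 to 4.22 in male controls, and these ranges did not overlap.

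**Figure D3:**
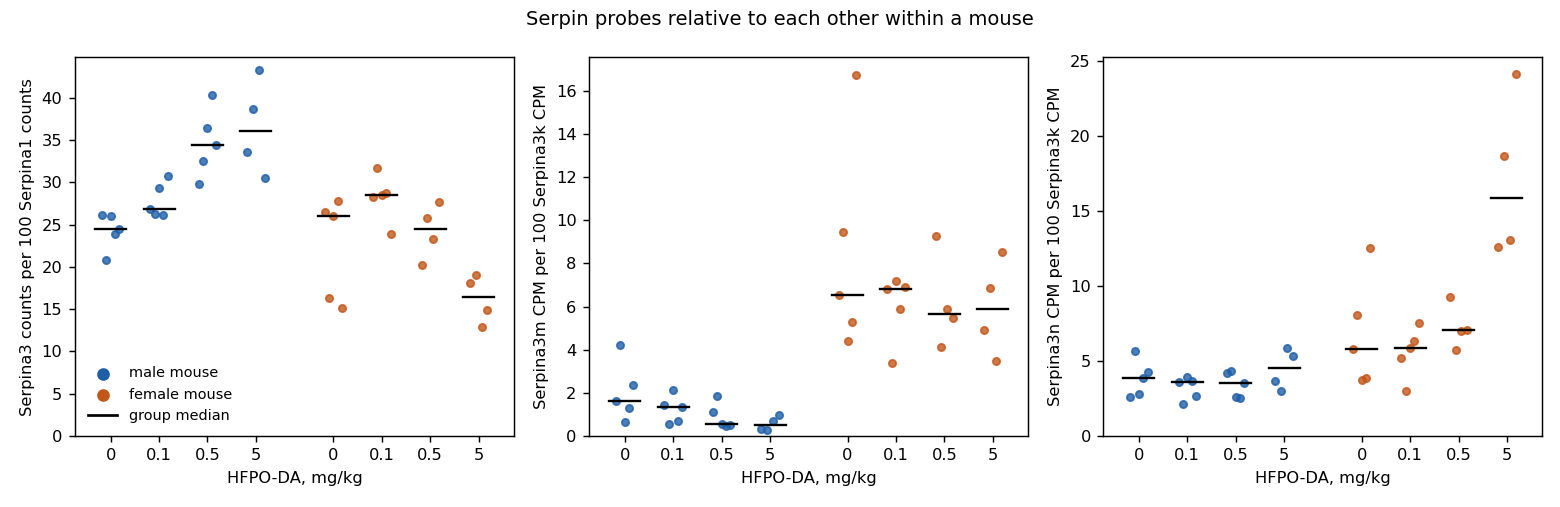
Serpina3 counts per 100 Serpina1 counts, and Serpina3m and Serpina3n CPM per 100 CPM of Serpina3k, in each mouse by HFPO-DA dose in mg/kg. Points are mice and bars group medians. The first ratio is higher in males at 0.5 and 5 mg/kg than in male controls, and the Serpina3n ratio is 12.6 to 24.1 in females at 5 mg/kg.

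Other genes placed the family among its neighbours in function. Lists were described by counts and medians, with 1 probe a gene. At 5 mg/kg 8.49% of all probes were lower and 4.21% higher in males, and 2.26% lower and 2.26% higher in females. A list count near these shares is not read as a result about the list. Of 10 other clade A serpins tested, 4 were lower and 1 higher in males at 5 mg/kg, and 5 were lower and 2 higher in females, with medians of -1.23 and -1.08. Serpina6, the corticosteroid-binding globulin, fell with log2 fold changes of -1.38 ± 0.30 and -1.28 ± 0.29 (adjusted p = 0.0014 and 0.00449). Serpina11 fell by 2.77 ± 0.37 and 1.26 ± 0.34 on the log2 scale (adjusted p = 6.99e-07 and 0.0221). Serpina7, the thyroxine-binding globulin, rose in both sexes, by 1.72 ± 0.48 and 2.57 ± 0.49 on the log2 scale (adjusted p = 0.018 and 0.0005). Serpina3g was higher in females (2.4 ± 0.68, adjusted p = 0.0345) and at -1.12 ± 0.7 in males (adjusted p = 0.345). Its female levels were low, 3.58 ± 2.05 CPM in controls and 19 ± 19.7 CPM at 5 mg/kg. The pseudogene Serpina4-ps1 was lower in both (log2 -10.8 ± 2.45 and -5.97 ± 1.91, adjusted p = 0.00263 and 0.0789). Its levels were 106 ± 140 and 11.2 ± 15.6 CPM in male and female controls, with SDs above the means. At 5 mg/kg its means were 0.059 and 0.168 CPM, so the size of the fall is loosely set.

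Of 23 other plasma protease inhibitors 17 were lower in males and 12 in females, with none higher and medians of -1.10 and -0.70. Itih4, an inter-alpha-trypsin inhibitor heavy chain, was at -2.14 ± 0.31 and -1.23 ± 0.30 (adjusted p = 4.64e-06 and 0.00994). Kng1, kininogen, fell by 1.21 ± 0.19 and 1.04 ± 0.18 on the log2 scale (adjusted p = 9.4e-06 and 0.000169). Fetub, fetuin-B, was lower by 1.74 ± 0.23 and 0.67 ± 0.22, measured the same way (adjusted p = 4.93e-07 and 0.0921). Pzp, an alpha-2-macroglobulin relative, fell in males (-1.17 ± 0.18, adjusted p = 5.92e-06) and was at -0.31 ± 0.17 in females (adjusted p = 0.526). The fall of the serpins was thus accompanied by lower transcripts of many other inhibitors. Of the proteases that such serpins inhibit, or their kin, 7 of 17 passed the filter and 1 was lower in both sexes, Tmprss6, a hepatocyte protease (-0.73 ± 0.15 and -0.75 ± 0.15, adjusted p = 0.0007 and 0.000646).

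Of 23 acute phase proteins tested, 14 were lower in males and 2 in females, with medians of -1.27 and -0.08. The male count fell to 7, with a median of -0.49, without control replicate 2, the mouse with high Saa1. Crp, C-reactive protein, was lower in both sexes (-1.11 ± 0.17 and -0.77 ± 0.17, adjusted p = 6.72e-06 and 0.0022). Orm1, an orosomucoid, was lower in males (-2.95 ± 0.46, adjusted p = 1.24e-05), as were Apcs, serum amyloid P (-1.94 ± 0.45, 0.00297), and Fga, a fibrinogen chain (-1.06 ± 0.23, 0.00167). Without control replicate 2, whose Orm1 level was 1866 CPM against 168 to 261 CPM in the other male controls, Orm1 was at -1.63 ± 0.26 (adjusted p = 2.93e-05) and Apcs at -1.13 ± 0.37 (adjusted p = 0.0527). In females Orm1 was at -0.73 ± 0.42, Apcs at -0.63 ± 0.42 and Fga at -0.60 ± 0.23, with adjusted p-values of 0.553, 0.699 and 0.193. The response of 4 acute phase genes differed between the sexes by the test of the difference (Saa1, Saa2, Orm1 and Hp), and of 0 without that control mouse or without replicate 3 at 5 mg/kg, the shallowest mouse. At 0.5 mg/kg 6 of the list were lower in males, where 0.242% of all probes were lower, and 0 without the same control.

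Of 25 genes of acute phase signalling and hepatocyte transcription factors 5 were lower in males (3 without male control replicate 2) and 1 in females. Of all probes 8.49% were lower in males and 2.26% in females. These counts are small and are not read as a result about the group. Il1r1, the interleukin-1 receptor, was at -2.46 ± 0.36 in males and 0.03 ± 0.34 in females (adjusted p = 4.91e-06 and 1.0), and this difference passed its own test (-2.49, adjusted p = 0.00626). Stat3, which carries the interleukin-6 signal, was at -0.91 ± 0.23 and -0.54 ± 0.23 (adjusted p = 0.00839 and 0.261). Foxa3 fell in males (-1.0 ± 0.26, adjusted p = 0.00887) and was at 0.67 ± 0.25 in females (adjusted p = 0.17). Rxra was lower in females (-0.55 ± 0.16, adjusted p = 0.0437) and at -0.42 ± 0.16 in males (adjusted p = 0.1, not called). Its response difference between the sexes was 0.13 ± 0.22 (adjusted p = 0.96).

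Of 10 growth hormone signalling genes 3 were lower and 1 higher in males and 2 lower in females. Ghr, the growth hormone receptor, fell by 1.16 ± 0.26 and 1.05 ± 0.26 on the log2 scale (adjusted p = 0.00205 and 0.00866). Igf1 was lower in males (-0.65 ± 0.24, adjusted p = 0.0908), a call lost without replicate 3 at 5 mg/kg (-0.63, adjusted p = 0.157). Igfals was at 1.86 CPM in male controls and 0 in males at 5 mg/kg. Cux2, a transcription factor expressed mainly in female liver, went from 26.5 ± 13.4 to 5.33 ± 3.43 CPM in females (adjusted p = 0.0506).

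Of 25 genes that fold, export or dispose of secreted proteins 4 were lower in males and 2 in females, where 8.49% and 2.26% of all probes were lower, with medians of -0.36 and -0.17. These counts are small and are not read as a result about the group. Lman1, a cargo receptor that carries alpha-1 antitrypsin out of the endoplasmic reticulum, was at -0.62 ± 0.14 in males and -0.29 ± 0.14 in females (adjusted p = 0.00345 and 0.395). Edem1, which helps dispose of misfolded glycoproteins, fell in both sexes (-0.61 ± 0.17 and -0.65 ± 0.17, adjusted p = 0.0196 and 0.0208), as did Pdia6 (-0.87 ± 0.23 and -0.88 ± 0.23, adjusted p = 0.00994 and 0.0139). Herpud1 was lower in males (-1.62 ± 0.27, adjusted p = 3.74e-05) and at 0.02 ± 0.26 in females.

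Of 15 other abundant plasma proteins 8 were lower in males and 4 in females, with medians of -0.54 and -0.25. Apoa4 fell in both (-2.61 ± 0.42 and -3.43 ± 0.43, adjusted p = 2.19e-05 and 3.45e-07), as did Apoc3 (-0.87 ± 0.15 and -1.02 ± 0.15, adjusted p = 6.93e-05 and 7.14e-06). Apoa1 was lower in males (-1.14 ± 0.19, adjusted p = 2.71e-05) and at -0.01 ± 0.18 in females, and Vtn was lower in males (-0.99 ± 0.19, adjusted p = 0.000413). Exposure was visible in the PPAR alpha targets, of which 14 of 15 were higher in males and 13 in females. Ehhadh, an enzyme of peroxisomal fatty acid oxidation, was at 5.51 ± 0.30 and 5.03 ± 0.29 on the log2 scale.

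**Figure D4:**
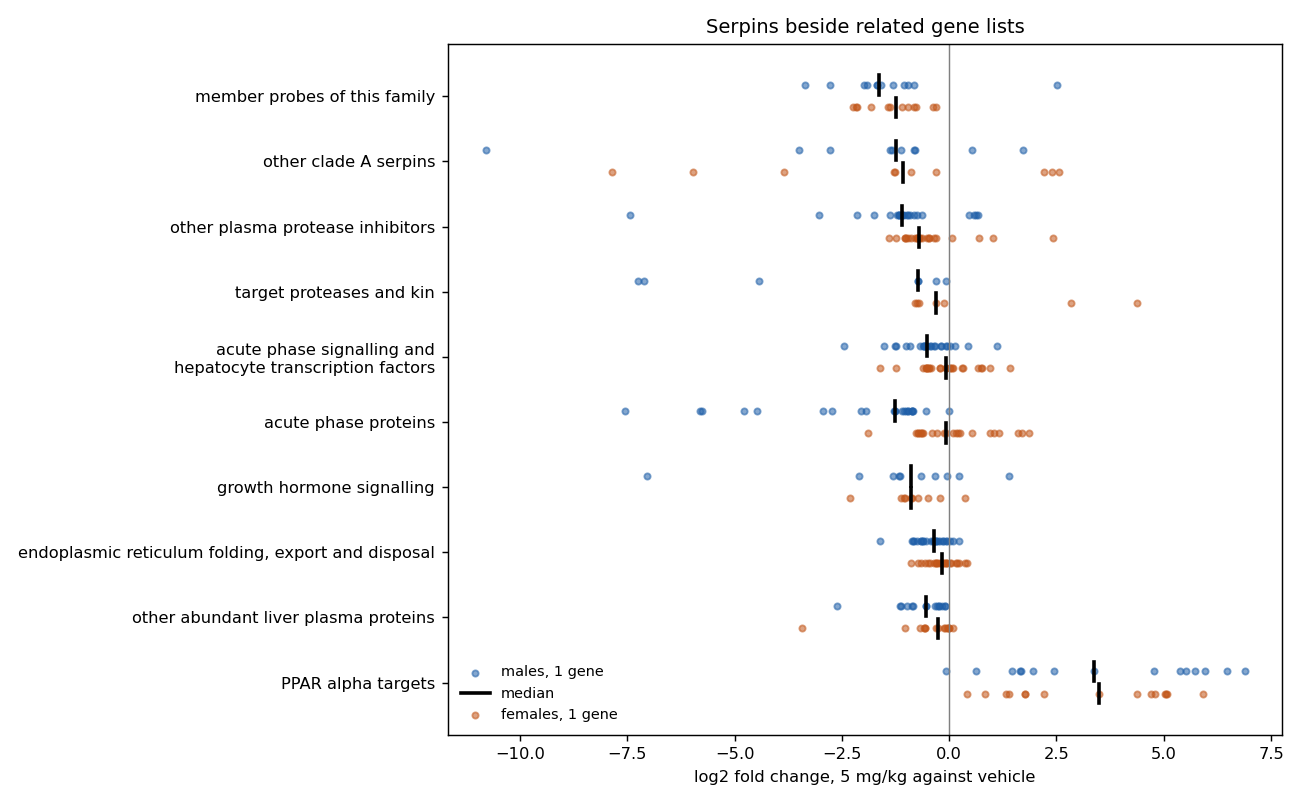
Log2 fold change at 5 mg/kg against vehicle for the 12 serpin probes and for the genes of 9 related lists, in males (upper row of each pair) and females (lower row). Each point is a probe or gene and each bar the median; the serpin medians are -1.63 and -1.25, and all PPAR alpha targets but 1 in males lie to the right of 0.

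The pattern over the 8 groups was compared with that of 12989 other genes, by centring each gene's mean log2 CPM and taking the root mean square difference. The genes closest to Serpina1e_82223 were Tedc2 (0.134), Ptprt (0.186), Gnmt (0.19), Tmem19 (0.192) and Arid5b (0.197). Among the 5 closest to Serpina3k_62628 were Ugt2b1 (0.239), Nfil3 (0.316), Tedc2 (0.317) and Eif4ebp3 (0.325). Gnmt, glycine N-methyltransferase, is a hepatocyte enzyme, and its log2 fold changes at 5 mg/kg were -1.65 in males and -1.08 in females. For Ugt2b1, a glucuronosyltransferase, they were -1.74 and -1.85. For Ptprt the fitted log2 fold changes were -5.98 and -3.93, far larger than those of Serpina1e_82223, so a small difference on this measure need not mean an equal fold change. These are descriptions over 8 group means.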

How the data were processed

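RNA was measured by TempO-Seq, a ligation assay read by sequencing, in sections of fixed, paraffin-embedded liver. The authors deposited a table of whole-number counts per probe, not normalized. Their notes name bcl2fastq 2.17.1.14 and Bowtie, and a genome build is not given in the sources used here. The study left out libraries of low quality, which are not analysed here. Groups came from the labels.

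Probes were kept by edgeR's filterByExpr over the 8 groups. Counts were fitted for all 37 mice with 1 mean per group, TMM scaling and edgeR 4.0.16 quasi-likelihood tests (R 4.3.3), adjusted by Benjamini-Hochberg over 18570 probes in each of 11 comparisons, with a threshold of 0.1. Levels are CPM, and log2 CPM for likeness used a prior count of 2. SE is the absolute log2 fold change divided by the square root of F. Males had the smaller totals, so their low probes are less precise. The fit was tested on simulated data. Alternatives were DESeq2 1.42.0, other scaling, filters, a robust fit, thinning to the smallest total, summing probes, and leaving out each mouse.

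All member probes are named. From each list the text names up to 4 genes with the smallest adjusted p at 5 mg/kg in either sex. Alb, Saa1, Saa2, Hp, Lcn2, Serpina3g and the mouse apart were singled out after their values were seen. Members and lists were chosen with earlier results of these data known. Promoters matched 6 of 8 genes. A few genes that the rule names are not reported here.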

Additional observations from a re-analysis of the deposited data

Results flagged for a closer look

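Each measured serpin gene's most counted probe was checked in the 8 groups for a mouse far from the rest, 56 groups in all, and 3 stood apart by the gap to the nearest mouse relative to the range (Dixon's test at 95%). Chance alone marks about 1 group in 20. Serpina1a_72510 was at 933.02 CPM in male control replicate 3, against 448 to 544 CPM in the other 4. Serpina1d_74731 was at 184.52 CPM in female replicate 3 at 0.5 mg/kg, against 148 to 150.2 CPM. Serpina1e_82223 was at 3415.6 CPM in female replicate 3 at 5 mg/kg, against 2515 to 2557 CPM, and that mouse was still below every female control. No serpin response differed between the sexes past the threshold.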

How the results depend on the processing

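The count of lowered serpin probes at 5 mg/kg stayed at 11 in males and 9 in females in every fit that left out 1 mouse. With probes summed per gene it was 7 of 7 genes in males, and 7 genes were lower at 5 than at 0.5 mg/kg. The single call in males at 0.5 mg/kg became 0 with each sex fitted apart, probes summed, a robust fit or a threshold of 0.05, and was 0 to 1 without 1 mouse. Between control males and females, probes lower in males fell to 1 with summing, the robust fit or the stricter threshold (0 to 2 without 1 mouse), and probes higher fell to 2 at the stricter threshold (2 to 4). For the sex difference in response at 5 mg/kg, 1 probe passed upward with DESeq2, its size factors or no filter. Without 1 mouse 0 to 1 passed upward and 0 to 1 downward. Females at 5 against 0.5 mg/kg had 6 to 8 lowered probes without 1 mouse. Without male control replicate 2 or male replicate 3 at 5 mg/kg, settings chosen after seeing the data, lowered signalling genes numbered 3 to 4, acute phase genes 7 to 12 and raised growth hormone genes 0 to 1.

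Signs turned in low or unchanged probes, none of them called in the fit reported. Replacing a probe by its gene sum gave Serpina1e_62853 -0.33 in males at 0.5 mg/kg, -1.64 at 5 mg/kg, 0.57 between controls and -0.22 for the response difference. It gave Serpina1b_67899 0.56 and Serpina3n_71566 0.1 between controls. Leaving out 1 mouse, Serpina3n_29367 ran from -0.03 to 0.12 in males and -0.04 to 0.13 in females at 0.5 mg/kg, and Serpina3n_71566 from -0.17 to 0.29 and -0.14 to 0.35. Serpina1b_67899 ran from -0.12 to 0.03 in females at 0.5 mg/kg and -0.28 to 0.02 between controls, where Serpina3n_71566 ran from -0.29 to 0.09, and Serpina1e_62853 ran from -0.67 to 6.5 in males at 5 mg/kg. Apart from the gene sums, the cause was not tested. The median of all probes in males at 5 mg/kg was -0.12 with TMM and -0.03 with DESeq2 size factors. No paired analysis was possible because the replicate numbers follow accession order and carry no pairing.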
